A study of Mus musculus with 10 samples.

Results

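The 32 genes described here mark skeletal muscle, from its migrating precursors to its contractile apparatus, and were followed in all 10 arrays of a study of mouse limb buds with and without Dicer. They were taken by symbol from the 18193 genes to which the platform annotation gives at least 1 unambiguous probe set (a group of short probes that reads 1 transcript). Each gene is represented by the probe set with the highest mean log2 signal, and 12 of the 32 have more than 1, which makes 55 probe sets in all. By role, 4 are progenitor genes, 4 are later myogenic regulators, 17 encode sarcomere proteins and 7 encode cytoskeletal, membrane or metabolic proteins of muscle cells. A mean signal of at least 151.4, the median over all probe sets, was required for a test, and 26 of the 32 passed. Pax7, Myf5, Myf6, Myh8, Tnnt3 and Neb did not, so their values are given without a test.

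The arrays hold total RNA of embryonic limbs, 5 labelled wild type and 5 labelled mutant, numbered 1 to 5 in each group. Embryos came from a mating in which 1 parent was homozygous for a floxed Dicer allele and the other was heterozygous for it and carried the prxcre driver, a Cre transgene active in limb bud mesenchyme. The label wild type does not state which of these alleles an embryo carried, and genotyped embryos are described as heterozygous, wild type and mutant. Stage, limb type and the number of embryos behind each array are not given in the labels. The p-values therefore reflect the spread between these samples alone, which may be technical. This driver acts in the connective and skeletal lineages of the limb, not in the muscle lineage, which limits the comparison as a test of Dicer in muscle cells themselves.

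The labels of both arrays numbered 2 went against the targeted gene: at 1 of its probe sets Dicer1, which encodes the RNase that matures microRNAs, had a signal of 233 in wild type 2 and 360 in Dicer mutant 2, against 372 to 706 in the other wild type arrays and 205 to 226 in the other mutant arrays. Comparisons are therefore given both over 10 arrays as labelled and over the 8 arrays without number 2, a choice that rests on Dicer1. Array medians lay between 145.9 and 152.8. The limb mesenchyme list, with Prrx1, Twist1 and the Hox genes of the limb among its members, passed the filter in 14 of 14 genes, while 8 of 9 heart markers were under the filter signal in every array.

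Limb muscle is built by cells that leave the somites and migrate into the limb bud, where they meet a mesenchyme of another origin. Pax3 and Lbx1 mark the migrating precursors, Myf5 and Myod1 commit them to the muscle fate, and Myog drives their fusion and differentiation together with MEF2 factors. Differentiating cells then switch on embryonic and cardiac-type isoforms of actin, myosin and troponin, the proteins of the sarcomere. In RNA from whole limbs, fewer muscle cells and less of an RNA in each muscle cell cannot be told apart.

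The sequences just before the start sites of a few chosen members are shown, to set the actin pair and a troponin beside the progenitor gene Myf5. RefSeq's table for GRCm38.p6 held a start site for 24 of the 32 members. Both strands of the 250 bases before the first listed start were searched for the E-boxes CAGCTG and CAGGTG, for CATTCC (the core of the MCAT element) and for TATAAA. The MEF2 site was searched as CTAWWWWTAR and the CArG box as CCWWWWWWGG, where W is A or T and R is A or G. Capitals mark a match.
Actc1 (chr2:114052876-114053125, minus strand): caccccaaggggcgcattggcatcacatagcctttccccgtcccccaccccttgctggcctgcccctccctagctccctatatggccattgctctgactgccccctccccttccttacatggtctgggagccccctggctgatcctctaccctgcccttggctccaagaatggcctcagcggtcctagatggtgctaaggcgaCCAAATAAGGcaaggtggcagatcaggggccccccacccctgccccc
Acta1 (chr8:123894776-123895025, minus strand): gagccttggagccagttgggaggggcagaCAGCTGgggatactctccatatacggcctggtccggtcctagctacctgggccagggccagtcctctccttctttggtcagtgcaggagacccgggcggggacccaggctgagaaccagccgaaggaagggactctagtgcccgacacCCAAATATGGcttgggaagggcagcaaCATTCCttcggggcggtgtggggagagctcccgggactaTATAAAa
Tnnt1 (chr7:4515976-4516225, minus strand): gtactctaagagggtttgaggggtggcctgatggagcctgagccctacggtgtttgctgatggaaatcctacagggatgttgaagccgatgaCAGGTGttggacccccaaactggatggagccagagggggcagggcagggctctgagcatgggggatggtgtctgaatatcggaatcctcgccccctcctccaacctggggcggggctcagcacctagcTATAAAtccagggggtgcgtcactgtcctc
Myf5 (chr10:107486135-107486384, minus strand): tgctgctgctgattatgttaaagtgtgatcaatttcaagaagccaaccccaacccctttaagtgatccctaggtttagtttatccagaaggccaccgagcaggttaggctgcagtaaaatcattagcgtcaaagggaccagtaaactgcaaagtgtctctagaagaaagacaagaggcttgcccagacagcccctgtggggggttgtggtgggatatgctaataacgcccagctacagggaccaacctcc
The CArG box, the binding sequence of serum response factor, was found in the windows of both actin genes and in no other member with a window, and in 1.4% of the 27025 genes searched. In Acta1 it ended 64 bases before the start and in Actc1 38 bases before it. CAGCTG, an E-box of the kind bound by MYOD and myogenin, was found in 9 of the 24 windows and in 12.8% of all genes. It was present in 5 of 14 sarcomere genes and in Des, Chrng, Chrna1 and Ckm. No progenitor gene and no regulator with a window had it. CAGGTG was found in 6 of 24 windows (17.1% of all genes), CATTCC in 6 (12.6%), the MEF2 site in 3 (1.73%) and TATAAA in 6 (13%). In Myh8 the TATAAA lies inside the MEF2 match. In Myf5 none of these letters was found, and none in Pax7, Myl4, Cdh15 or Myog either. Myog, like Actc1, was highest in Dicer mutant 2 and lowest in wild type 5, so its signals went with those of Actc1 without a match. These matches describe letters in a window and not the binding of a factor.

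No member was called between the groups in either comparison, while 11 of the 14 tested sarcomere genes spanned at least 2-fold over the 10 arrays. Limma (a linear model with moderated variances over all 22519 tested probe sets, Benjamini-Hochberg adjusted) called 0 of the 26 tested members with 10 arrays, where it called 0% of all probe sets, and 0 of 26 with 8 arrays, where it called 1.68%. At an unadjusted p below 0.05 there were also 0 members in both, against 2.81% and 12.7% of all probe sets. In 0 of 26 members did the wild type and mutant signals fall into separate ranges, with 10 arrays (0.4% of all probe sets) or with 8 (9.09%). Centred on their groups, the 8 arrays correlated at 0.55, 0.55, 0.71 and 0.32 within numbers 1, 3, 4 and 5. The highest correlation across groups with an array of another number was 0.54, 0.54, 0.52 and 0.52. Only number 4 stood clearly above it and number 5 lay under it, so pairing by number is not settled. The fit with the number as a block is given as an alternative. Blocked on the number, limma again called 0 of 26 members with 8 arrays (0 at an unadjusted p below 0.05), where it called 5.41% of all probe sets (21.8% unadjusted). With 10 arrays the blocked fit also called 0 of 26 (0 unadjusted), and 0% of all probe sets (3.92% unadjusted). With 8 arrays the smallest adjusted p among members under the block was 0.315, for Ckm. Fold changes are given from the fit without the block unless it is named, and the block changes their errors only.

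**Figure D1:**
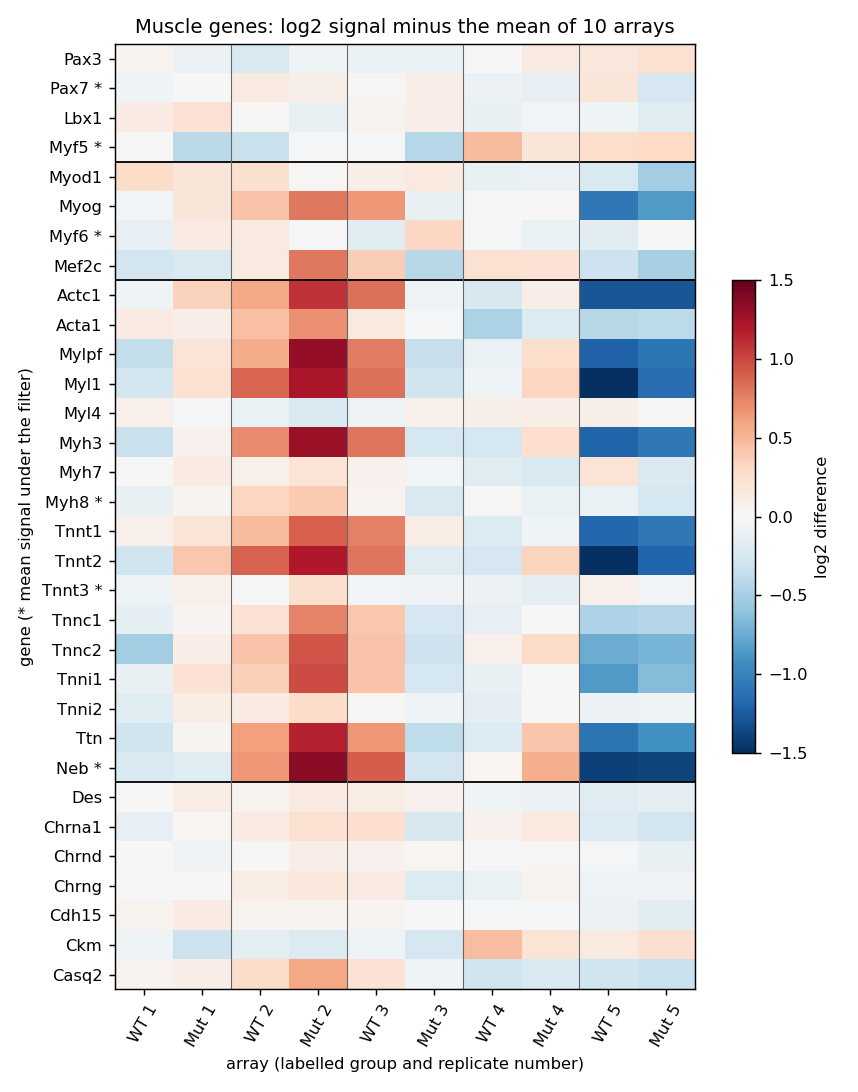
Log2 signal of each of the 32 genes in each array minus that gene's mean over 10 arrays, red above and blue below; arrays are ordered by replicate number with wild type (WT) left of Dicer mutant (Mut), genes by role, and stars mark the 6 genes under the filter. Of the 17 sarcomere genes, 12 are highest in Dicer mutant 2 and lowest in an array numbered 5, as is Myog, while Myl4 is lowest in Dicer mutant 2; among progenitor genes Myf5 varies most, from 88 to 164.

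Neither tested progenitor gene was called between the groups. Pax3, the transcription factor of the migrating precursors, had signals of 193, 161, 175, 189 and 211 in wild type 1 to 5 and of 177, 180, 175, 207 and 221 in Dicer mutant 1 to 5. The groups overlapped throughout, and the highest signals were those of both arrays numbered 5. Its log2 fold change (mutant over wild type) was 0.04 (SE 0.09, n = 5 per group, 95% interval -0.15 to 0.24; limma adjusted p = 1) with 10 arrays and 0.02 (SE 0.095, -0.20 to 0.23; adjusted p = 0.985) with 8.

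Lbx1, a homeobox gene needed for precursors to reach the dorsal limb, had 258, 238, 245, 219 and 226 in wild type 1 to 5 and 274, 218, 252, 230 and 208 in the mutant arrays. No array stood apart, and the highest over the lowest signal was 1.32-fold. For Lbx1 the log2 fold change was -0.01 (SE 0.085, interval -0.20 to 0.17; limma adjusted p = 1) with 10 arrays and 0.02 (SE 0.097; adjusted p = 0.984) with 8. For both genes the intervals over 10 arrays stayed within 0.24 of 0 on the log2 scale, at the chosen probe sets. Their other probe sets did not pass the filter, with 112 to 154 and 85.9 to 105 for Pax3. The other Lbx1 probe set spanned 91.5 to 138 and was highest in wild type 5. Without detection calls the distance of the chosen probe sets from background is unknown, which limits what these narrow intervals show.

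Pax7, which marks the later fetal precursors, and Myf5, the first of the muscle determination factors, were dim. Pax7 had 96.7, 111, 102, 95.1 and 114 in wild type 1 to 5 and 101, 107, 108, 92.7 and 84.6 in the mutant arrays, all under the filter signal. Myf5 had 118, 93.8, 116, 164 and 142 in wild type 1 to 5 and 89.3, 117, 88, 134 and 146 in the mutant arrays. Every array numbered 4 or 5 had more Myf5 signal than every array numbered 1 to 3, with geometric means of 146 and 103, a pattern seen in 8.34% of all tested probe sets. Without detection calls the distance of these signals from background is unknown.

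Of the 4 later regulators, Myog and Mef2c were highest in Dicer mutant 2 and lowest in an array numbered 5, while Myod1 was highest in wild type 1 and lowest in Dicer mutant 5. Myod1, the determination factor of committed myoblasts, had 295, 288, 262, 227 and 209 in wild type 1 to 5 and 277, 247, 271, 231 and 170 in the mutant arrays. Its 6 arrays numbered 1 to 3 all lay above the 4 arrays numbered 4 and 5 (11.7% of all probe sets did so), and the groups overlapped. The log2 fold change of Myod1 was -0.11 (SE 0.14, interval -0.42 to 0.20; limma adjusted p = 1) with 10 arrays and -0.08 (SE 0.17; adjusted p = 0.937) with 8.

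Myog, which encodes myogenin, the switch to differentiation, had 378, 523, 613, 391 and 186 in wild type 1 to 5 and 443, 675, 362, 389 and 217 in the mutant arrays. Dicer mutant 2 was highest and wild type 5 lowest, 3.64-fold apart, and both arrays numbered 5 lay under all others. The log2 fold change was 0.01 (SE 0.33, interval -0.72 to 0.74; limma adjusted p = 1) with 10 arrays and -0.08 (SE 0.34; adjusted p = 0.974) with 8. Mef2c, a cofactor of the myogenic regulators that vessels and other limb cells also express, had 355, 477, 558, 508 and 351 in wild type 1 to 5 and 369, 751, 326, 503 and 307 in the mutant arrays. It was again highest in Dicer mutant 2, and all 5 of its probe sets passed the filter and had their highest signal in that array. Its log2 fold change was -0.05 (SE 0.24; limma adjusted p = 1) with 10 arrays and -0.23 (SE 0.2; adjusted p = 0.763) with 8. Myf6, a regulator of later fibres, had 57.4, 68.9, 55.6, 62 and 56.1 in wild type 1 to 5 and 68.4, 63, 77.7, 58.4 and 62.4 in the mutant arrays, under the filter signal in each.

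**Figure D2:**
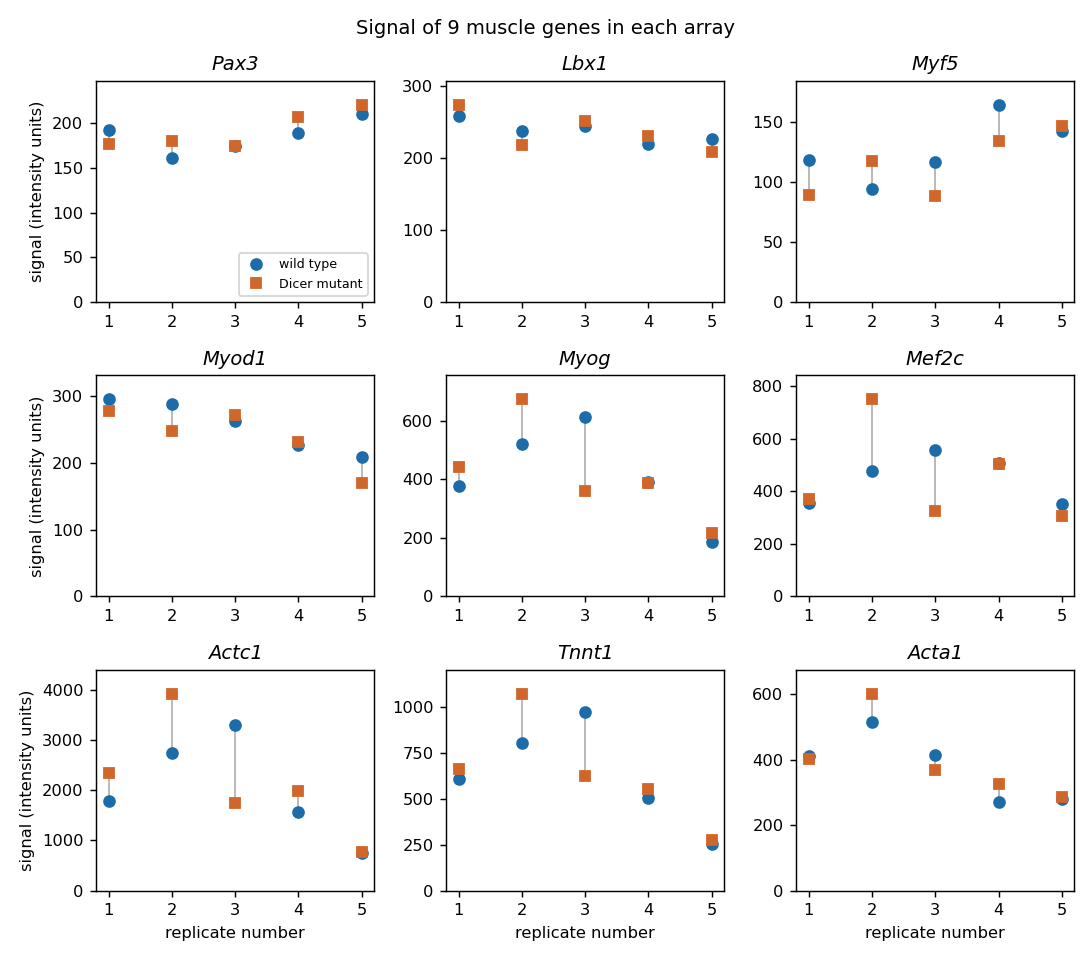
Signal in intensity units (linear axis from 0) of 9 muscle genes in each array by replicate number, wild type as circles and Dicer mutant as squares, with a grey line joining arrays of the same number. Actc1 spans 761 to 3921 with both groups covering most of that range, whereas Pax3 spans 161 to 221.

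Among sarcomere genes, Actc1, the cardiac-type actin that embryonic muscle uses first, had the highest mean signal. It had 1781, 2740, 3288, 1562 and 761 in wild type 1 to 5 and 2346, 3921, 1753, 1976 and 762 in the mutant arrays. The arrays numbered 5 stood lowest in each group and were nearly equal to each other, and the order of the groups turned between numbers 2 and 3. The log2 fold change was 0.07 (SE 0.44, interval -0.90 to 1.04; limma adjusted p = 1) with 10 arrays and -0.04 (SE 0.45, -1.07 to 0.98; adjusted p = 0.992) with 8. With the replicate block the error was smaller, and the interval ran from -0.53 to 0.44 (SE 0.204; adjusted p = 0.935) with 8 arrays.

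Mylpf, the fast muscle myosin light chain, had 500, 938, 1094, 595 and 276 in wild type 1 to 5 and 731, 1587, 503, 765 and 298 in the mutant arrays. Its range was 5.76-fold, again from wild type 5 to Dicer mutant 2. The log2 fold change was 0.13 (SE 0.44; limma adjusted p = 1) with 10 arrays and -0.02 (SE 0.42; adjusted p = 0.996) with 8.

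Tnnt1, the slow muscle troponin T that anchors the troponin complex on tropomyosin, had 610, 807, 975, 504 and 255 in wild type 1 to 5 and 664, 1075, 625, 554 and 276 in the mutant arrays. Arrays numbered 1 to 3 all lay above those numbered 4 and 5. Its log2 fold change was 0.03 (SE 0.39, interval -0.81 to 0.87; limma adjusted p = 1) with 10 arrays and -0.07 (SE 0.4; adjusted p = 0.985) with 8. Acta1, the actin of adult skeletal muscle, had 410, 515, 415, 270 and 281 in wild type 1 to 5 and 402, 602, 369, 326 and 287 in the mutant arrays. It also separated numbers 1 to 3 from 4 and 5, over a narrower 2.23-fold range, and its lowest array was wild type 4. Its log2 fold change was 0.07 (SE 0.22; limma adjusted p = 1) with 10 arrays and 0.03 (SE 0.17; adjusted p = 0.985) with 8.

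Tnnt2, the cardiac troponin T that embryonic skeletal muscle also makes, and Myl1, a fast muscle alkali light chain, had the widest ranges of all members, 7.45-fold and 7.54-fold. Both were singled out after their values were seen. Tnnt2 had 124, 283, 266, 128 and 47.1 in wild type 1 to 5 and 203, 351, 135, 192 and 66.9 in the mutant arrays. Its log2 fold change was 0.23 (SE 0.51, interval -0.89 to 1.34; limma adjusted p = 1) with 10 arrays and 0.20 (SE 0.51; adjusted p = 0.95) with 8, the largest positive value among the tested members in both. Myl1 had 303, 671, 650, 350 and 114 in wild type 1 to 5 and 431, 857, 299, 460 and 166 in the mutant arrays, with its highest signal in Dicer mutant 2 and its lowest in wild type 5, as for Actc1.

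**Figure D3:**
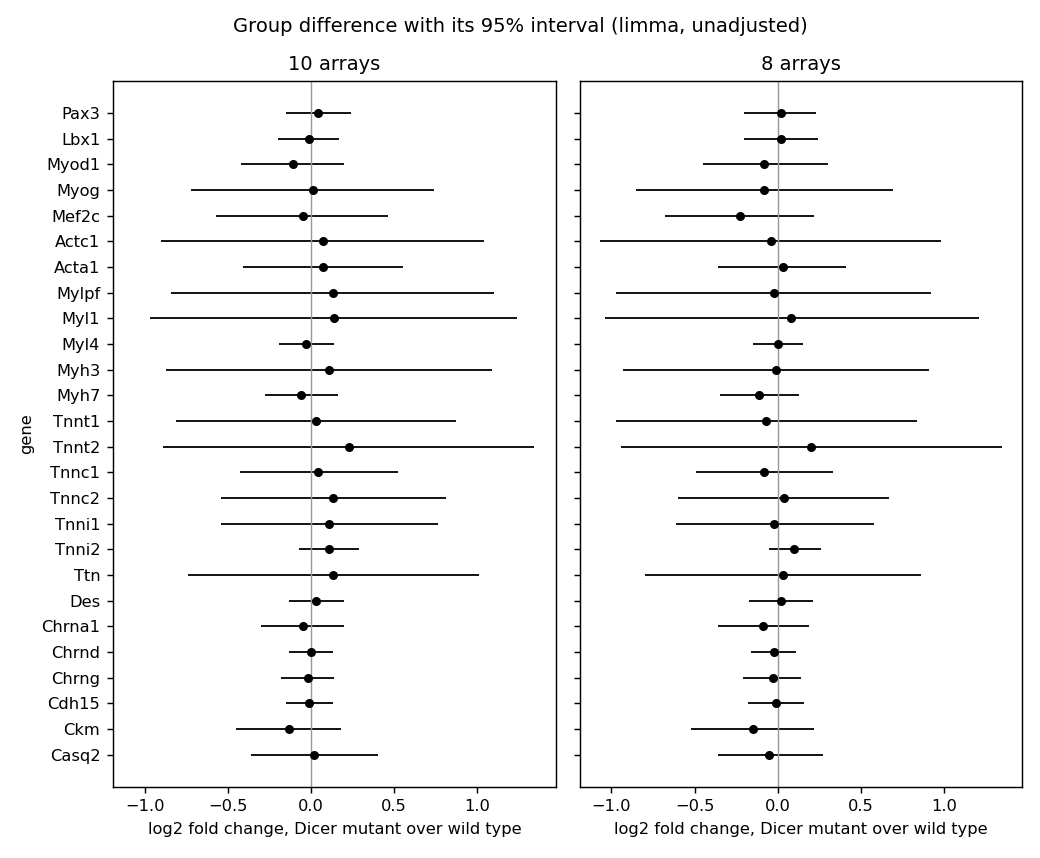
Log2 fold change of Dicer mutant over wild type for the 26 tested genes with its unadjusted 95% interval from limma without the replicate block, over 10 arrays (left) and 8 arrays (right). Each interval crosses 0. Over 10 arrays that of Actc1 (-0.90 to 1.04) is several times wider than that of Pax3 (-0.15 to 0.24). Other sarcomere genes such as Myl4 (-0.19 to 0.14) and Tnni2 (-0.07 to 0.29) have narrow intervals.

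The other sarcomere genes fell into a wide and a narrow set. Myh3, the embryonic myosin heavy chain, spanned 182 to 1022, Ttn, the giant spring protein titin, 131 to 624, Tnnc2, the fast troponin C that binds calcium, 137 to 440, Tnni1, the slow troponin I, 147 to 524, and Tnnc1, the slow and cardiac troponin C, 403 to 931. Each of these was highest in Dicer mutant 2 and lowest in wild type 5. Neb, which encodes the thin filament ruler nebulin, spanned 20.3 to 136 and had the same extremes, but stayed under the filter signal in every array. The narrow set comprised Myh7, the slow and cardiac myosin heavy chain (172 to 232), Tnni2, the fast troponin I (160 to 219), Myh8, the perinatal myosin (61.4 to 96.7), Tnnt3, the fast troponin T (122 to 158), and the chosen probe set of Myl4, an embryonic and atrial light chain (187 to 234). For Myl4 the choice of probe set decided the pattern. Its second tested probe set (1422580_at) had 106, 263, 268, 125 and 77.6 in wild type 1 to 5 and 177, 432, 123, 150 and 72 in the mutant arrays, with the highest signal in Dicer mutant 2 and the lowest in an array numbered 5 as in the wide set, while the brighter 1457126_at had its lowest signal in Dicer mutant 2. Ttn gave the same extremes at both of its tested probe sets.

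Counted over the 14 tested sarcomere genes, 11 had a highest signal at least 2-fold above the lowest over the 10 arrays, a spread seen in 7.17% of all tested probe sets. Of the 3 tested regulators 2 did so (Myog and Mef2c), and 0 of the 2 tested progenitor genes and 0 of the 7 cytoskeletal, membrane and metabolic genes did. Without the arrays numbered 2 the sarcomere count was 9 of 14 (5.67% of all probe sets). The highest signal lay in Dicer mutant 2 and the lowest in an array numbered 5 for 10 of 14 tested sarcomere genes and 15 of 26 tested members, an arrangement chosen after seeing the data and met by 3.34% of all probe sets. It was met by 10 sarcomere genes under quantile normalization, median centring and both offsets as well. Over the 8 arrays the lowest signal lay in an array numbered 5 for 10 of 14 sarcomere genes and 19 of 26 members, against 30.8% of all probe sets. Muscle genes are expressed by the same cells, so these counts are not of independent genes.

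Among the 7 cytoskeletal, membrane and metabolic genes no range reached 2-fold, and the widest were those of Casq2 (1.87-fold) and Ckm (1.73-fold). The acetylcholine receptor subunit genes Chrna1, Chrnd and Chrng spanned 130 to 187, 194 to 224 and 138 to 177, and Des, which encodes the muscle intermediate filament protein desmin, 166 to 206. Casq2, a calcium store protein of the sarcoplasmic reticulum, had 269, 316, 303, 211 and 212 in wild type 1 to 5 and 279, 388, 249, 222 and 207 in the mutant arrays. Ckm, the muscle creatine kinase, ran the other way at its brighter probe set, with 243, 230, 242, 351 and 280 in wild type 1 to 5 and 204, 220, 213, 293 and 301 in the mutant arrays. Arrays numbered 4 and 5 all lay above those numbered 1 to 3 for this probe set, but at the second one, 1417614_at, the 10 signals stayed between 131 and 171 without that separation. Cdh15, which encodes the myoblast adhesion protein M-cadherin, had 217, 216, 214, 204 and 197 in wild type 1 to 5 and 228, 215, 208, 205 and 187 in the mutant arrays. Chrnd, the delta subunit gene, which tied with Cdh15 in mean signal (209), had 208, 210, 219, 204 and 204 in wild type 1 to 5 and 202, 224, 213, 212 and 194 in the mutant arrays. With Des and Casq2, Cdh15 lay higher in every array numbered 1 to 3 than in any numbered 4 or 5, as did Myod1, Tnnt1 and Acta1, which makes 6 of 26 tested members (11.7% of all probe sets). At the second Des probe set, 1426732_at, which did not pass the filter, the 10 signals stayed between 113 and 127 without that separation.

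Set against each other within an array, progenitor and sarcomere genes shifted more from array to array within a group than between the group means. The mean log2 signal of the 4 progenitor genes minus that of the 17 sarcomere genes has no meaning as a level, since probe sets differ in brightness, but can be followed from array to array. It was -0.65, -1.37, -1.31, -0.64 and 0.06 in wild type 1 to 5 and -1.03, -1.67, -0.76, -0.91 and -0.11 in Dicer mutant 1 to 5. The balance thus lay furthest to the sarcomere side in both arrays numbered 2 and in wild type 3, and furthest to the progenitor side in both arrays numbered 5, whatever the group. The wild type mean was -0.78 ± 0.59 (SD, n = 5) and the mutant mean -0.90 ± 0.56 (SD, n = 5). Without number 2 they were -0.63 ± 0.56 and -0.70 ± 0.41 (SD, n = 4 each), so that the difference between groups was smaller than the spread within either. By number the mean of the pair was -0.84 for number 1, -1.52 for 2, -1.03 for 3, -0.77 for 4 and -0.03 for 5. The sarcomere mean varied more: it ranged from 7.32 to 8.89 on the log2 scale while the progenitor mean ranged from 7.14 to 7.38. The narrow progenitor range does not show that each progenitor gene was steady. By geometric mean, Pax3 and Myf5 were lower in numbers 1 to 3 than in 4 and 5, while Pax7 and Lbx1 were higher. Such opposite shifts partly cancel in a mean. Pax7 and Myf5 were also under the filter, and the distance of all 4 progenitor genes from background is unknown. With the 2 and 14 genes past the filter alone the order of the extremes was kept, from -1.67 in Dicer mutant 2 to 0.14 in wild type 5.

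**Figure D4:**
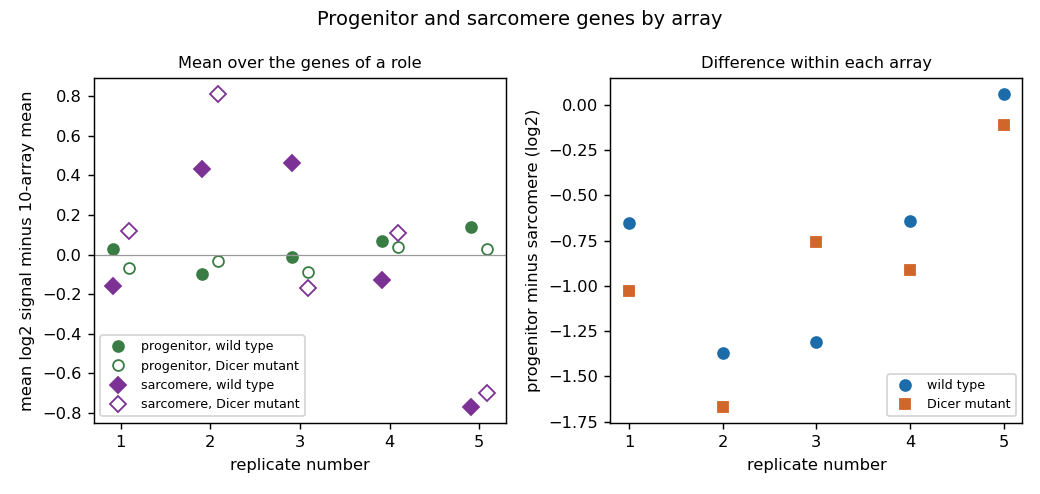
Left, mean log2 signal of the 4 progenitor genes (circles) and the 17 sarcomere genes (diamonds) in each array minus the 10-array mean of that role, filled for wild type and open for Dicer mutant; right, the progenitor mean minus the sarcomere mean in each array. The sarcomere mean runs from -0.77 in wild type 5 to 0.81 in Dicer mutant 2, the progenitor mean from -0.10 to 0.14.

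Within numbers as labelled, the sarcomere genes were mostly higher in the mutant array in 4 of the 5 numbers and mostly lower in number 3. Number 2 is 1 of those 4, although both of its labels went against Dicer1 and its group-centred arrays correlated at -0.18. Without it, the genes were mostly higher in the mutant array in numbers 1, 4 and 5. That arrays of a number form pairs is not settled. The sarcomere mean was higher in the mutant array by 0.28 on the log2 scale in number 1, by 0.38 in number 2, by 0.25 in number 4 and by 0.07 in number 5, and lower by a difference of -0.63 in number 3. Of the 17 sarcomere genes, 15, 16, 14 and 13 were higher in the mutant array in numbers 1, 2, 4 and 5, and 1 was in number 3. The share of all probe sets higher in the mutant array is not given here for single numbers. Muscle genes are expressed by the same cells, so these counts are not of independent genes, and Myh8, Tnnt3 and Neb were under the filter. A higher mutant signal in number 2 with a lower one in number 3 was seen in 13 of the 14 tested sarcomere genes and in 29.4% of all tested probe sets. The progenitor mean differed by -0.10, 0.08, -0.07, -0.03 and -0.11 in numbers 1 to 5.

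Whether the members differed among the 5 replicate numbers was asked with limma's F test in a model that also held the labelled group. No label says what a number marks. Of the 26 tested members 2 were called, Tnnt1 (adjusted p = 0.0453) and Acta1 (adjusted p = 0.0467), where 1.87% of all probe sets were called. At an unadjusted p below 0.05 there were 15 of 26 members and 19.7% of all probe sets. Actc1 had an adjusted p of 0.0653, Tnnt2 of 0.0681, Myl1 of 0.0782, Myog of 0.0798, Casq2 of 0.0893, Ckm of 0.0912, Myod1 of 0.0947 and Pax3 of 0.234 in the same F test. The count moved with the calls over the whole array. Without wild type 1, 4 or 5 or Dicer mutant 1, 4 or 5 it was 0, where 2 to 22 of the 22519 probe sets were called. Without wild type 2 it was 10 (13.9% of all probe sets) and without Dicer mutant 2 it was 4 (10.6%). Without wild type 3 or Dicer mutant 3 it stayed 2, but the called genes were Myl1 and Tnnt2, among 4 and 8 probe sets called in all. Without both arrays numbered 2, 6 members were called (Actc1, Acta1, Tnnt1, Myod1, Myog and Ckm), as were 10.6% of all probe sets.

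By role, the 14 tested sarcomere genes had a median log2 fold change of 0.11 with 10 arrays (12 above 0 and 2 below) and -0.0031 with 8 (7 and 7), beside -0.021 and -0.0064 over all tested probe sets. The medians were 0.016 and 0.016 for the 2 progenitor genes, -0.053 and -0.079 for the 3 regulators and -0.0093 and -0.034 for the 7 cytoskeletal, membrane and metabolic genes. Leaving out single arrays moved the sarcomere median between -0.131 and 0.311 with 10 arrays and between -0.244 and 0.236 with 8. Array weights turned it to -0.265 with 10 arrays and -0.341 with 8, and took the regulator median to -0.296 and -0.335.

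Of 83 further muscle genes listed beside the members, 75 were on the array and 37 passed the filter. Between groups limma called 0 of 37 with 10 or with 8 arrays (2 and 4 at an unadjusted p below 0.05, against 2.81% and 12.7% of all probe sets), and the groups did not overlap for 3 of 37 with 8 arrays (Mef2d, Dmd and Myh4), against 9.09% of all probe sets. Between numbers 1 of 37 was called, where 1.87% of all probe sets were: Klhl41, which encodes a sarcomere maintenance protein of the kelch family (limma F test adjusted p = 0.0439). It had 177, 323, 293, 169 and 83.7 in wild type 1 to 5 and 224, 351, 190, 230 and 86.8 in the mutant arrays, highest in Dicer mutant 2 and lowest in wild type 5. Next by the F test came Six2 (adjusted p = 0.0514), a homeobox gene also of connective tissue, Cox6a2 (0.0632), the muscle isoform of a cytochrome oxidase subunit, Actn2 (0.0891), the Z-disc actinin, Mybph (0.0929), a myosin-binding protein, and Msc (0.165), a transcription factor of muscle precursors. Actn2 and Mybph were highest in Dicer mutant 2 and lowest in an array numbered 5, while Cox6a2 was highest in wild type 4. Of the 37, 7 combined the highest signal in Dicer mutant 2 with the lowest in an array numbered 5, against 3.34% of all probe sets.

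Several lists of other cells had their highest or lowest sums in the same arrays as the muscle genes, over narrower ranges than the sarcomere genes. Of 5 tendon genes on the array 4 passed the filter (Tnmd did not in any array), and their summed signal ran from 1254 to 1867 in the wild type and from 1064 to 1924 in the mutant arrays, with the highest sums in Dicer mutant 2 and wild type 3 and the lowest in Dicer mutant 5. Cartilage markers, 4 of 8 past the filter and Acan and Matn1 under the filter signal in every array, ran from 4789 to 6466 and from 4149 to 6202, also highest in wild type 3 and Dicer mutant 2 and lowest in Dicer mutant 5. The mean log2 deviation of the tendon list ran from -0.45 in Dicer mutant 5 to 0.33 in Dicer mutant 2 and wild type 3. That of the cartilage list ran from -0.18 to 0.27, and that of the sarcomere genes from -0.77 to 0.81. The tendon range was wider than those of the progenitor genes (-0.10 to 0.14) and of the cytoskeletal, membrane and metabolic genes (-0.12 to 0.15). It was close to that of the regulators (-0.47 to 0.40). Red cell genes were lowest in Dicer mutant 2 (a sum of 23427, against 27617 to 37265 in the other arrays). Smooth muscle markers, 4 of 6 past the filter, ran from 2635 to 3279 and from 2518 to 3715, highest in Dicer mutant 2 and lowest in Dicer mutant 5. Nerve and Schwann cell markers, 2 of the 6 on the array past the filter and Fabp7 and Stmn2 under the filter signal in every array, had the same extremes and ran from 995 to 1183 and from 909 to 1267. Endothelial markers, 6 of 6 past the filter, were highest in wild type 5 (2034) and lay between 1415 and 1715 in the other arrays. Ectoderm markers, 6 of 6, ran from 2864 to 3717 and from 2748 to 3245, and white cell markers, 3 of 6, from 1207 to 1688 and from 1178 to 1509, both highest in wild type 2. Heart markers, 1 of 9 past the filter and the others under the filter signal in every array, stayed between 883 and 943 in all arrays. The distance of such dim signals from background is unknown, and any part of heart tissue in Actc1 and Tnnt2 was not tested. Limb mesenchyme markers, 14 of 14 past the filter, ran from 14644 to 18295 and from 15318 to 17825. Their sums in arrays numbered 1 to 3 (16271 to 18295) all lay above those numbered 4 and 5 (14644 to 16196). The gap between these sums was small, and brighter genes weigh more in a sum. The mean log2 deviation of this list was -0.05 in both Dicer mutant 2 and wild type 5, so on that scale no gap was seen. For single genes, the separation seen for members such as Tnnt1 and Acta1 was met by 11.7% of all tested probe sets. None of the listed markers had a signal of 0. The part of the other lists in the muscle values was not tested.

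**Figure D5:**
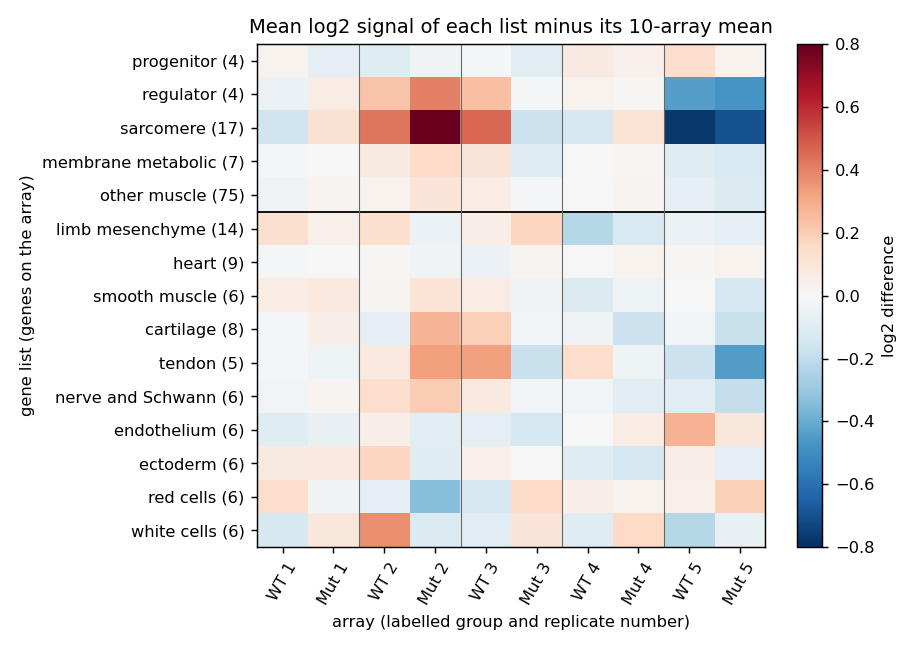
Mean log2 signal of each gene list in each array minus the list's mean over 10 arrays, red above and blue below, with the number of genes on the array in brackets; muscle lists lie above the line and lists of other cells below it. The sarcomere row runs from -0.77 to 0.81, the heart row from -0.05 to 0.03, and tendon and cartilage are above their means in Dicer mutant 2 and wild type 3.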

How the data were processed

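Total RNA of mouse embryonic limbs was turned into biotinylated cRNA and read on Affymetrix arrays, 1 per sample. The deposited values are linear intensity signals per probe set, made by the authors with GCOS version 1.3 per the submitters' processing notes; how probes were summarized, the scaling target and any detection calls were not given in the sources used here. Across arrays the trimmed means ran from 276 to 289, so no normalization was added. Signals below 1 were set to 1, log2 was taken, 64 control probe sets were left out of 45101, and those with a mean log2 value at or above the median (22519) were tested with limma 3.58.1 in R 4.3.3 (intensity trend, Benjamini-Hochberg at 0.05), which was first tested on simulated data. Names came from the platform annotation, for 34945 probe sets with 1 symbol. The number of arrays limits the precision.

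Each role is described by counts and medians. Signals in every array are given for the progenitor genes, the regulators, the 3 brightest members of each other role and any called member; of the other muscle genes, the 6 with the smallest p between numbers are named. Members and lists were chosen with earlier results of these data known. Shared numbers come from the sample titles. As a check, each array was centred on its group, and arrays of one number then correlated at 0.43, -0.18, 0.27, 0.67 and 0.41 for numbers 1 to 5, and without number 2 at 0.55, 0.55, 0.71 and 0.32 for numbers 1, 3, 4 and 5. Without number 2, the highest correlation across groups with an array of another number was 0.54, 0.54, 0.52 and 0.52. Number 5 lay under this value and numbers 1 and 3 barely above it. The numbers were therefore not taken to pair the 10 arrays, and for the 8 arrays pairing is not settled. Alternatives were other normalizations, offsets of 16 and 64, other filters, no trend, array weights, the replicate block, averaged probe sets and leaving out arrays; leaving out both arrays of number 1, 3, 4 or 5 was added after seeing the data.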

Additional observations from a re-analysis of the deposited data

How the results depend on the processing

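Between groups, the count of called members was 0 under every alternative run, with 10 and with 8 arrays, the replicate block and each left-out array included. The intervals of sarcomere genes such as Actc1, wide without the block and narrower with it, limit what these 0 calls show. Without detection calls the distance of the dim members from background is unknown. The count of members called between replicate numbers, 2 of 26, became 1 (Tnnt1) under quantile normalization or no filter, 5 with array weights and 6 without both arrays numbered 2, and ranged from 0 to 10 when single arrays were left out. Without both arrays numbered 1, 4 or 5 it was 0 and without both numbered 3 it was 6. Over all probe sets, the 422 called between numbers became 4262 with array weights, 256 genes with averaged probe sets and 2397 without number 2, and 7, 17, 3 and 2 without numbers 1, 3, 4 and 5; single arrays gave 2 to 3136. The 378 called between groups with 8 arrays became 2612 with array weights, 1219 with the replicate block and 217 genes with averaged probe sets, and 25, 23, 36 and 250 without numbers 1, 3, 4 and 5; single arrays gave 93 to 745. The progenitor median with 10 arrays was -0.039 with averaged probe sets, and the log2 fold change of Lbx1 was 0.01 after quantile normalization. The cause of these changes was not tested. Leaving out single arrays turned the sign of small, uncalled fold changes: with 10 arrays Pax3 lay between -0.01 and 0.09, Lbx1 -0.07 and 0.03, Myod1 -0.18 and 0.01, Myog -0.26 and 0.22, Mef2c -0.26 and 0.06, Actc1 -0.24 and 0.40, Mylpf -0.18 and 0.42, Tnnt1 -0.26 and 0.30, Acta1 -0.10 and 0.19, and Tnnt2 -0.17 and 0.55. With 8 arrays Pax3 lay between -0.05 and 0.07, Lbx1 -0.05 and 0.09, Myod1 -0.16 and 0.07, Myog -0.40 and 0.18, Actc1 -0.41 and 0.31, Mylpf -0.35 and 0.31, Tnnt1 -0.42 and 0.23, Acta1 -0.08 and 0.13, and Tnnt2 -0.24 and 0.59.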
